A study of Mus musculus with 12 samples.

Results

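Sca-1, the product of Ly6a, is the surface protein most used to sort mouse hematopoietic stem cells (HSCs), and it is also a known interferon target. Its RNA and that of 4 relatives, Ly6e, Ly6c1, Ly6c2 and Ly6d, were followed through 12 RNA libraries of cultured HSCs. These 5 genes are 5 of the 40481 genes in the deposited table. They were taken by gene symbol, 1 row per gene ID. The group was chosen by name with the level of Ly6a in the ETV6-RUNX1 fetal liver libraries already known. Comparisons of these genes that use an ETV6-RUNX1 library are therefore given as descriptions with no test, and the comparison of the WT libraries is tested. The WT fetal liver libraries are also part of the genotype comparison known at the choice, and the fit takes its spread from all 12 libraries. The WT test is therefore not independent of the choice.

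Ly6 proteins are small extracellular proteins that share the LU domain, a fold held by disulfide bonds, and most are tethered to the membrane by a glycosylphosphatidylinositol (GPI) anchor. Interferons bind receptors that use JAK kinases, which activate STAT proteins, and the STAT proteins with IRF9 or through IRF1 and IRF7 switch on target genes. Several Ly6 genes lie beside each other in the mouse, and some of them respond to interferons in blood cells and endothelium.

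HSCs had been sorted either from embryos (fetal liver, stage E14.5) or from mice 8 weeks old (bone marrow). They were WT or carried iE/R, a construct given in the labels with the genotype ETV6-RUNX1, a leukemia-associated fusion of 2 transcription factor genes. All 4 groups of 3 libraries, WT included, had been kept for 3 days in a culture that expands HSCs, with DOX (doxycycline) at 1 µg/mL. The sort gate, the mouse strain, the animals behind each library and the promoter of the construct are not given in the sources used here. The p-values therefore measure only the spread between these libraries, which may in part be technical.

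Library totals were 32.3 to 64.5 M reads. Values are CPM, read counts scaled to a common library total, and 3 reads, taken as the floor of detection, equal 0.047 to 0.093 CPM depending on the library (counting error only). Runx1 was at 110 to 136 CPM in WT and 218 to 244 CPM in ETV6-RUNX1 fetal liver libraries, and at 86.7 to 105 and 143 to 194 CPM in bone marrow. Etv6 was at 103 to 149 and 174 to 185 CPM in fetal liver, and at 132 to 183 and 193 to 253 CPM in bone marrow. Both partner genes were thus higher in every ETV6-RUNX1 library of a source, and gene totals do not separate the fusion from the normal genes. All 16 listed HSC genes passed the filter on low values (at least 1 CPM in at least 3 libraries), Kit among them at 97.5 to 552 CPM. The list also holds Cd48 and Flt3, markers absent from the most immature HSCs. WT bone marrow replicate 1 stands apart in some genes. It held 49.4 CPM of S100a8 and 17.3 CPM of Elane, genes of granulocytes and their precursors. The other bone marrow WT libraries held at most 12.0 and 0.22 CPM. Its Kit was 129 CPM against 552 and 403 CPM in replicates 2 and 3, and its sum of the 16 HSC genes 2144 against 3131 and 2768 CPM. Its sum of 11 erythroid genes was 520 against 236 and 283 CPM. By the sum of 12 neutrophil genes it did not stand apart, at 164 CPM against 157 and 55.6 CPM in replicates 2 and 3. Of these genes, 6 reached 1 CPM in replicate 1 and 8 in replicate 2. The bone marrow ratios of Ly6a, Ly6e, Ly6c1 and Ly6c2 are also given without replicate 1.

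All 5 genes lie on chromosome 15 of GRCm38, within one cluster, and none overlaps another gene of the GENCODE M21 annotation. Ly6d (ENSMUSG00000034634) spans 74762056 to 74763620 on the minus strand and Ly6e (ENSMUSG00000022587) 74955051 to 74959905 on the plus strand. Ly6a (ENSMUSG00000075602) spans 74994877 to 74998031, Ly6c1 (ENSMUSG00000079018) 75044018 to 75048830 and Ly6c2 (ENSMUSG00000022584) 75108158 to 75111970, all on the minus strand. Ly6a, Ly6e and Ly6c1 passed the filter and are the 3 genes with a fitted value, Ly6c1 only through its ETV6-RUNX1 libraries. Ly6c2 and Ly6d did not pass and have no fitted value.

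Promoter sequences were found for 2 of the 5 genes, Ly6c1 and Ly6c2, in the RefSeq table for GRCm38.p6. They are shown since these near-copies differed in their level across the groups. Each run is the 250 bases before the most upstream listed start, read 5′ to 3′ on the minus strand. Capitals mark a match to the RUNX core TGTGGT, searched on both strands.
Ly6c1 promoter, chr15:75048838-75049087: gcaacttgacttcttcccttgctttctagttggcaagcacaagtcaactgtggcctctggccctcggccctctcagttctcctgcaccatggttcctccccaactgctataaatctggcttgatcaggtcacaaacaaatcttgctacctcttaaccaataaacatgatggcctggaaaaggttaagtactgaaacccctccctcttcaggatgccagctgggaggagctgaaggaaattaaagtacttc
Ly6c2 promoter, chr15:75111972-75112221: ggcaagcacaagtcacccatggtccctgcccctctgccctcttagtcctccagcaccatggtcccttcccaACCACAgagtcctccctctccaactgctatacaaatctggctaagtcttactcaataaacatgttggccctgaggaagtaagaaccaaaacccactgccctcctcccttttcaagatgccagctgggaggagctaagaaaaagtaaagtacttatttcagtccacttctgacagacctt

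An alignment of the 2 windows paired 216 bases, of which 164 (75.9%) were identical. The Ly6c2 window held 1 RUNX core, 179 bases before the start, on the opposite strand (ACCACA), and the Ly6c1 window held none. Of 32851 promoter windows of 250 bases in the table, 14.05% held that core on either strand. Neither window held the GAS-like motif TTCNNNGAA, a STAT site pattern found in 7.02% of windows, or the ISRE core GAAANNGAAA, an interferon response element pattern found in 2.98%. The patterns were searched on both strands and none shared bases with another match. A match or its absence describes these letters alone.

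Of the 3 tested genes, Ly6a had the largest differences between genotypes on the log2(CPM + 1) scale, while the ratio of mean CPM in bone marrow was larger for Ly6c1 (6.42 against 5.57). The level of Ly6a was 14.53, 21.4 and 21.2 CPM in WT fetal liver replicates 1, 2 and 3, and 903, 629 and 1107 CPM in those of ETV6-RUNX1 fetal liver. In bone marrow it was 179, 54.1 and 38.4 CPM in WT and 282, 601 and 629 CPM in ETV6-RUNX1. No ETV6-RUNX1 library overlapped a WT library, in either source. The lowest WT libraries were those of fetal liver and the highest ETV6-RUNX1 libraries were those of fetal liver, so the sources stood in opposite order in the 2 genotypes. In such bulk RNA, fewer cells of a type and less RNA per cell cannot be told apart.

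**Figure D1:**
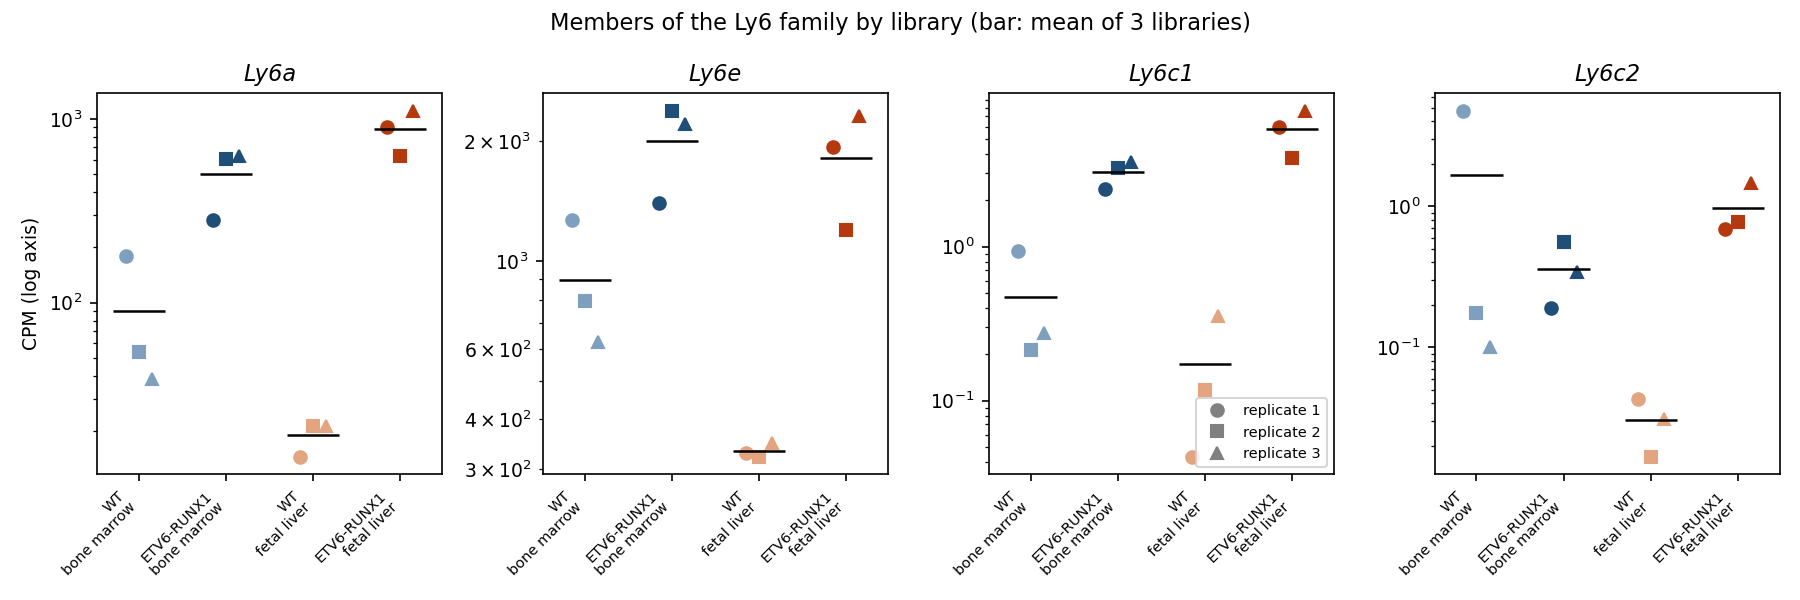
CPM (log axis) of Ly6a, Ly6e, Ly6c1 and Ly6c2 in each of the 12 libraries, by group, with a bar at the mean of 3 libraries. Ly6a runs from 14.53 CPM in a WT fetal liver library to 1107 CPM in an ETV6-RUNX1 one, and Ly6c2 has a single high WT bone marrow library.

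Over 3 fetal liver libraries each, Ly6a averaged 880 ± 239.5 CPM (SD) with the fusion and 19.0 ± 3.92 CPM (SD) without it, a ratio of 46.2. On the log2(CPM + 1) scale the difference was 5.44 ± 0.44 (SE), the rank of 38 from the top among 14271 genes tested. In bone marrow the means were 504 ± 193 and 90.5 ± 76.9 CPM (SD, n = 3 each), a ratio of 5.57, and the log2 difference was 2.70 ± 0.44 (SE), rank 32. Without WT bone marrow replicate 1 the bone marrow ratio was 10.9. In rank within a library, by CPM, Ly6a was between 91 and 209 in ETV6-RUNX1 fetal liver, 191 and 555 in ETV6-RUNX1 bone marrow, 1072 and 5056 in WT bone marrow and 6225 and 7717 in WT fetal liver.

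Ly6e encodes an interferon-inducible Ly6 protein, first known from immature thymocytes and later for its part in virus entry. Its level in WT fetal liver was 329, 322 and 349 CPM, its narrowest spread in any group. In ETV6-RUNX1 fetal liver it was 1934, 1200.5 and 2324 CPM. WT bone marrow libraries held 1269.8, 793 and 627 CPM, and ETV6-RUNX1 bone marrow libraries 1399, 2389 and 2214 CPM. The genotypes did not overlap within a source, but WT bone marrow replicate 1 lay above the lowest ETV6-RUNX1 fetal liver library. The log2 difference between genotypes was 2.39 ± 0.27 (SE) in fetal liver (means of 1819 and 333 CPM) and 1.18 ± 0.27 in bone marrow (2000.5 and 896 CPM). The bone marrow ratio of means was 2.23, and 2.82 without WT replicate 1. By CPM, Ly6e ranked from 14 in an ETV6-RUNX1 fetal liver library to 496 in a WT one among the genes of a library.

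Per kb of exon, Ly6a was below Ly6e in the 3 other groups and above it in ETV6-RUNX1 fetal liver. The group means were 15.8 and 88.1 CPM per kb in WT fetal liver, 75.1 and 237 in WT bone marrow, 418 and 529 in ETV6-RUNX1 bone marrow, and 730 and 481 in ETV6-RUNX1 fetal liver, for Ly6a and Ly6e. With the longest coding transcript in place of all exons (955 and 2281 bases) the order of the genes was the same in each group.

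The ratio of Ly6a to Ly6e reads removes the library total from the comparison. It was 0.044, 0.066 and 0.061 in WT fetal liver and 0.467, 0.524 and 0.476 in ETV6-RUNX1 fetal liver. In bone marrow it was 0.141, 0.068 and 0.061 in WT and 0.202, 0.252 and 0.284 in ETV6-RUNX1. The values form 3 separate levels: WT of either source, ETV6-RUNX1 bone marrow, and ETV6-RUNX1 fetal liver, with WT bone marrow replicate 1 above the other WT libraries.

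**Figure D2:**
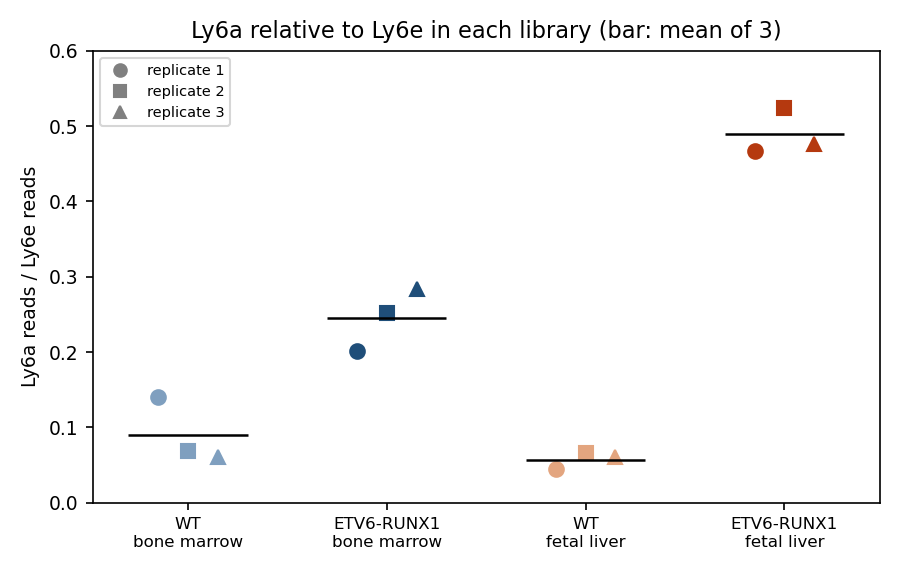
Ratio of Ly6a reads to Ly6e reads in each library (linear axis from 0), by group, with a bar at the mean of 3 libraries. ETV6-RUNX1 fetal liver libraries sit between 0.467 and 0.524, and no other library exceeds 0.284.

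Ly6c1 and Ly6c2 encode the 2 forms of Ly-6C, an antigen of monocytes, of some lymphocytes and, for Ly6c1, of endothelium. Ly6c1 was at 0.043, 0.117 and 0.357 CPM (2, 7 and 23 reads) in WT fetal liver and at 5.97, 3.75 and 7.62 CPM in ETV6-RUNX1 fetal liver. In bone marrow it was at 0.933, 0.214 and 0.274 CPM in WT and at 2.35, 3.21 and 3.56 CPM in ETV6-RUNX1. The genotypes did not overlap, and the lowest WT fetal liver library was below the floor. The fitted log2 differences were 2.499 ± 0.25 (SE) in fetal liver and 1.48 ± 0.25 in bone marrow. At such low levels the added 1 CPM shrinks them: the ratios of mean CPM were 33.5 and 6.42, and the latter was 12.5 without WT bone marrow replicate 1.

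Ly6c2 was carried by 1 library in WT bone marrow. Replicate 1 held 250 reads (4.76 CPM), and replicates 2 and 3 held 9 and 4 reads (0.175 and 0.0996 CPM). ETV6-RUNX1 bone marrow held 7, 18 and 11 reads. The ratio of mean CPM, ETV6-RUNX1 over WT, was 0.216 with all bone marrow libraries and 2.63 without WT replicate 1, so its direction rests on that library. In fetal liver, WT held 2, 1 and 2 reads and ETV6-RUNX1 33, 43 and 49. With reads pooled, 125 against 5, the rate was 31.2 times higher in ETV6-RUNX1 (exact 95% interval 13.01 to 97.7, counting error only). WT fetal liver was under the floor in each library.

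The balance of the 2 Ly-6C genes also set WT bone marrow replicate 1 apart. It held 5.10 Ly6c2 reads for each Ly6c1 read, and the 11 other libraries at most 1. Its S100a9 was 23.2 CPM against 6.15 and 0 CPM in the other WT bone marrow libraries, and its Ly6g, the defining Ly6 marker of neutrophils, was at 0 reads. The part of other cell types in the Ly6c2 value was not tested.

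Ly6d, a marker of early B-lymphoid progenitors, had 2 reads in all 12 libraries together, both in WT bone marrow replicate 3. It was not detectable at this depth in any library.

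Near-identical sequence limits how far these genes can be told apart. Of the stretches of 100 bases in Ly6c1 transcripts, 178 of 1756 (10.1%) occur letter for letter in Ly6a or Ly6c2, as do 159 of 2737 (5.81%) of those of Ly6c2 in Ly6c1. For Ly6a 19 of 1311 (1.45%) occur in Ly6c1, and for Ly6e and Ly6d none. Ly6c1 reads were 0.298% to 1.68% of Ly6a reads across the libraries. Reads from such stretches cannot be assigned to 1 gene by their letters, so the Ly6c1 and Ly6c2 values are uncertain.

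The 3 tested genes ranked the ETV6-RUNX1 libraries in part alike. In ETV6-RUNX1 fetal liver each was highest in replicate 3 and lowest in replicate 2, and in ETV6-RUNX1 bone marrow each was lowest in replicate 1. Over the 12 libraries Pearson's r of log2(CPM + 1) was 0.96 between Ly6a and Ly6e, 0.97 between Ly6a and Ly6c1 and 0.88 between Ly6e and Ly6c1. The points share 4 groups, so these values describe mainly the group means.

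The comparison of fetal liver with bone marrow in WT asks whether the sources differ without the fusion. Its p-values are not independent of the choice of the genes, which also used the WT fetal liver libraries. Ly6a fell in WT fetal liver, at 19.0 against 90.5 CPM, with a log2 difference of -1.89 ± 0.44 (SE) and a limma adjusted p of 0.0124. All 3 fetal liver libraries lay below all 3 bone marrow libraries. The adjusted p was 0.0864 with all genes that have reads in the limma fit and 0.0572 without WT fetal liver replicate 1. Without WT bone marrow replicate 1 it was 0.0156, with a log2 difference of -1.24. Ly6e also fell, at 333 against 896 CPM, by 1.36 ± 0.27 (SE) on the log2 scale, with a limma adjusted p of 0.00459 and no overlap. Ly6c1 did not pass, with a log2 difference of -0.31 ± 0.25 (SE), an adjusted p of 0.478 by limma and overlapping libraries. It was under 1 CPM in every WT library, where the added 1 CPM shrinks a difference. Its ratio of mean CPM, fetal liver over bone marrow, was 0.364, and 0.706 without WT bone marrow replicate 1. Over the alternatives its log2 difference ran from -1.34 to -0.094, with no call. The background in the same direction was 7.77% of the 14271 genes called lower and 18.9% with groups that do not overlap. In the other direction 3.38% were called higher.

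In ETV6-RUNX1 the sources stood differently. Ly6a was 1.74 times as high in fetal liver as in bone marrow (log2 difference 0.85 ± 0.44, SE), and the lowest fetal liver library, 629.4 CPM, lay just above the highest bone marrow library, 629.0 CPM. Ly6c1 was 1.90 times as high (0.72 ± 0.25). Ly6e was level, with overlapping libraries and a log2 difference of -0.15 ± 0.27 that took the other sign under median-of-ratios scaling (0.01).

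**Figure D3:**
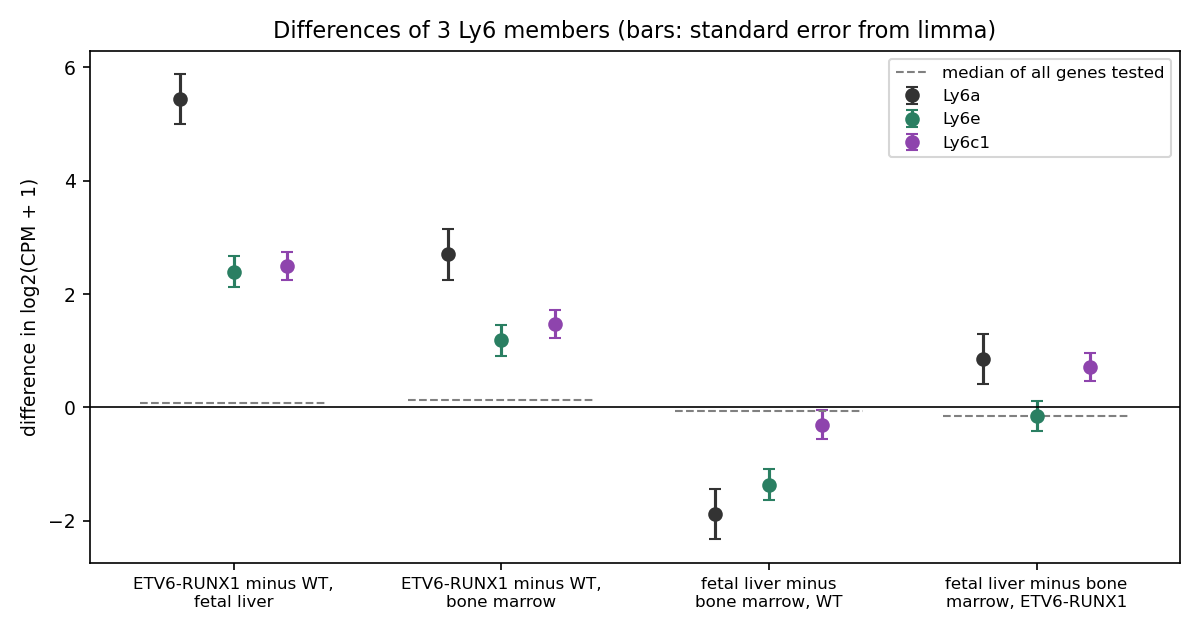
Differences in log2(CPM + 1) of Ly6a, Ly6e and Ly6c1 in 4 comparisons, with the standard error from limma as bars and the median of all genes tested as a dashed line. Ly6a has the largest value in both genotype comparisons (5.44 and 2.70) and the lowest between WT sources (-1.89).

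In both genotype comparisons all 3 of these genes had groups that do not overlap. Among all genes, 32.3% in fetal liver and 23.6% in bone marrow had groups that do not overlap in that direction. Nothing is read from this count, since the choice of the genes used this comparison. The difference between the genotype effects, fetal liver minus bone marrow, was 2.74 ± 0.63 (SE) for Ly6a, 1.21 ± 0.39 for Ly6e and 1.02 ± 0.36 for Ly6c1.

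The order of the groups was ETV6-RUNX1 fetal liver, ETV6-RUNX1 bone marrow, WT bone marrow, WT fetal liver for Ly6a and Ly6c1. For Ly6e the ETV6-RUNX1 groups were level and WT bone marrow stood above WT fetal liver. Neighbours in the order that overlapped were, for Ly6e, the ETV6-RUNX1 groups and also ETV6-RUNX1 fetal liver with WT bone marrow, and, for Ly6c1, the WT groups. Scaling moved the median of all genes in the bone marrow genotype comparison from 0.13 on the log2 scale as deposited to 0.01 after median-of-ratios scaling, and in the source comparison in ETV6-RUNX1 from -0.16 to -0.01. With that scaling the bone marrow differences were 2.56 for Ly6a, 1.04 for Ly6e and 1.37 for Ly6c1. It also moved the split of calls over all genes: from 2059 higher and 704 lower to 1479 and 1313 in the bone marrow genotype comparison, from 482 and 1109 to 651 and 948 between WT sources, from 1484 and 2604 to 2033 and 1487 between ETV6-RUNX1 sources, and from 794 and 517 to 993 and 353 for the difference between genotype effects.

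The genes whose pattern was most like that of Ly6a over the 12 libraries were Ifi27l2a (Pearson's r = 0.996), Zbp1 (0.993), Il18bp (0.990), Irf7 (0.988) and Rtp4 (0.988). Mean Ifi27l2a was 1.14 and 138 CPM in WT and ETV6-RUNX1 fetal liver, and 11.6 and 84.6 CPM in bone marrow, the group order of Ly6a. Those most like Ly6e were Ccl5 (0.984), Serpina3g (0.983), Apol10b (0.982), Ffar2 (0.980) and Il2rg (0.980). Ccl5, a chemokine gene, had means of 1.91 and 177 CPM in fetal liver and 28.2 and 219 CPM in bone marrow, so that bone marrow was the higher source in both genotypes. Those most like Ly6c1 were Ly6i (0.989), Epsti1 (0.989), Capg (0.987), Apol9a (0.984) and Apol9b (0.983). All these points share the 4 groups, and no p is given.

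Other genes of the LU-domain family were also higher in ETV6-RUNX1 fetal liver. Of 43 listed, 39 are in the table and 9 passed the filter. Among the 9 is Ly6g6f, which shares the Ly6 name but not the LU domain. Of the 9, 4 (Ly6i, Ly6g6c, Ly6g6d and Lypd1) passed only with the help of ETV6-RUNX1 libraries, where they are high, which in part fixes the count and the median below, and no p is given for them. Of these 9, 8 rose in fetal liver and 0 fell (median log2 difference 2.39, against 0.08 over all genes), where 24.8% of all genes were called higher and 18.3% lower. In bone marrow 2 of the 9, Ly6i and Plaur, rose and 0 fell (median 0.25, against 0.13), where 14.4% of all genes were called higher and 4.93% lower. Median-of-ratios scaling and edgeR also called 8 higher and 0 lower in fetal liver. At an unadjusted p under 0.05 limma had 0 lower in fetal liver and 1 in bone marrow, and DESeq2 called 6 higher in fetal liver, and 0 and 1 lower.

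Cd59a, which encodes the GPI-anchored inhibitor of the complement membrane attack complex, was the most abundant of them. It was at 123, 87.8 and 124 CPM in WT and 617, 686 and 735 CPM in ETV6-RUNX1 fetal liver. In bone marrow its means were 72.4 and 72.0 CPM, with overlapping libraries. Its log2 difference was 2.61 ± 0.20 (SE) in fetal liver, with an adjusted p of 1.86e-07 by limma, and -0.05 ± 0.20 (0.884) in bone marrow, and the difference between these effects was 2.66 ± 0.28 (6.13e-05), where 5.56% of all genes were called higher. Cd59a thus passed in 1 of the 2 sources, and the difference between the sources was itself past the threshold.

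Ly6g6f encodes a platelet surface protein with an immunoglobulin-like domain and is on the list by its name. It was at 26.1 CPM in WT and 200.3 CPM in ETV6-RUNX1 fetal liver on average (log2 difference 2.92 ± 0.70, limma adjusted p = 0.00418). Ly6g6c was at 1.98 and 23.5 CPM (3.17 ± 0.43) and Lypd1 at 0.232 and 8.76 CPM (2.98 ± 0.20). Their bone marrow differences were -0.18 for Ly6g6f (adjusted p of 0.879 by limma), 0.52 for Ly6g6c and -0.05 for Lypd1. The remaining called genes, named after their values were seen, were Ly6g6d (log2 difference 1.75), Cd59b (1.39) and Plaur (0.63), the urokinase receptor gene. Lynx1, a modulator of nicotinic receptors, did not pass in either source (adjusted p of 0.153 and 0.083 by limma). The summed level of the 39 genes was 140 to 191 CPM in WT and 883 to 1021 CPM in ETV6-RUNX1 fetal liver, and 113 to 131 and 129 to 186 CPM in bone marrow.

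**Figure D4:**
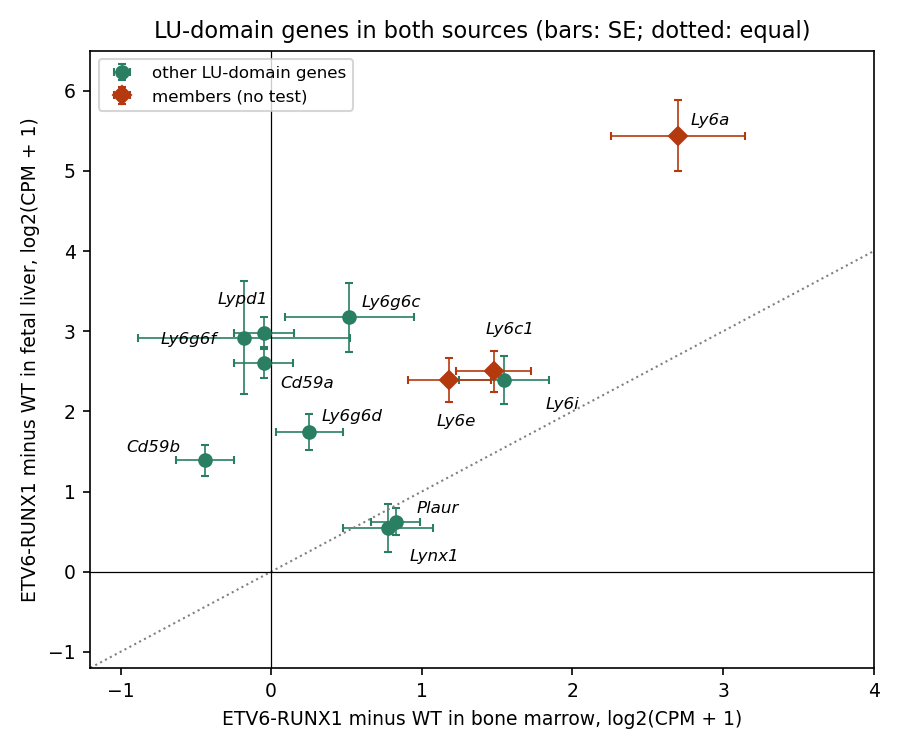
Difference in log2(CPM + 1) between ETV6-RUNX1 and WT in fetal liver (vertical) against bone marrow (horizontal) for 3 members and 9 other genes of the LU-domain list, with standard errors and a dotted line of equal differences. Cd59a, Lypd1 and Ly6g6f lie near 0 in bone marrow, while Ly6a, Ly6e, Ly6c1 and Ly6i are above 0 in both sources.

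Along the chromosome, 67 other genes of the table start within 1 Mb of Ly6a, and 22 passed the filter. Of the 22, 4 passed only with the help of ETV6-RUNX1 libraries, so the filter in part fixes the counts below. Ly6i and Rhpn1 are among these 4 and also among the 3 that rose in bone marrow. In fetal liver 5 rose and 6 fell (median log2 difference 0.06), where 24.8% of all genes were called higher and 18.3% lower. In bone marrow 3 rose and 0 fell (median 0.00), where 14.4% and 4.93% were, with 2, 3 and 4 called lower under median-of-ratios scaling, edgeR and DESeq2 and 4 lower at an unadjusted p under 0.05 by limma. Ly6i, 14.6 kb from the start of Ly6a and itself a Ly6 gene, was at 0.086, 0.201 and 0.295 CPM in WT and 6.01, 3.29 and 7.17 CPM in ETV6-RUNX1 fetal liver (log2 difference 2.39 ± 0.30), and its bone marrow difference was 1.54 ± 0.30. Ly6h, Ly6f and Ly6k, with 21, 44 and 36 reads in all libraries together, were too low to test, as was Ly6g with 6 reads.

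Outside the Ly6 genes, the named neighbours that rose in fetal liver were Arc (1.36), Gsdmd, the pore-forming protein of pyroptosis (1.23), and Naprt (1.02). Those that fell were Top1mt (-1.02), Pycrl (-0.93), Eef1d (-0.93), Zfp623 (-0.57) and Tsta3 (-0.45). Jrk, Lynx1, Zfp41, Rhpn1, Zc3h3, Mroh6, Zfp707 and Ccdc166 did not pass there. Arc also rose in bone marrow (0.85), as did Rhpn1 (1.52), which passed the filter only with ETV6-RUNX1 libraries.

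**Figure D5:**
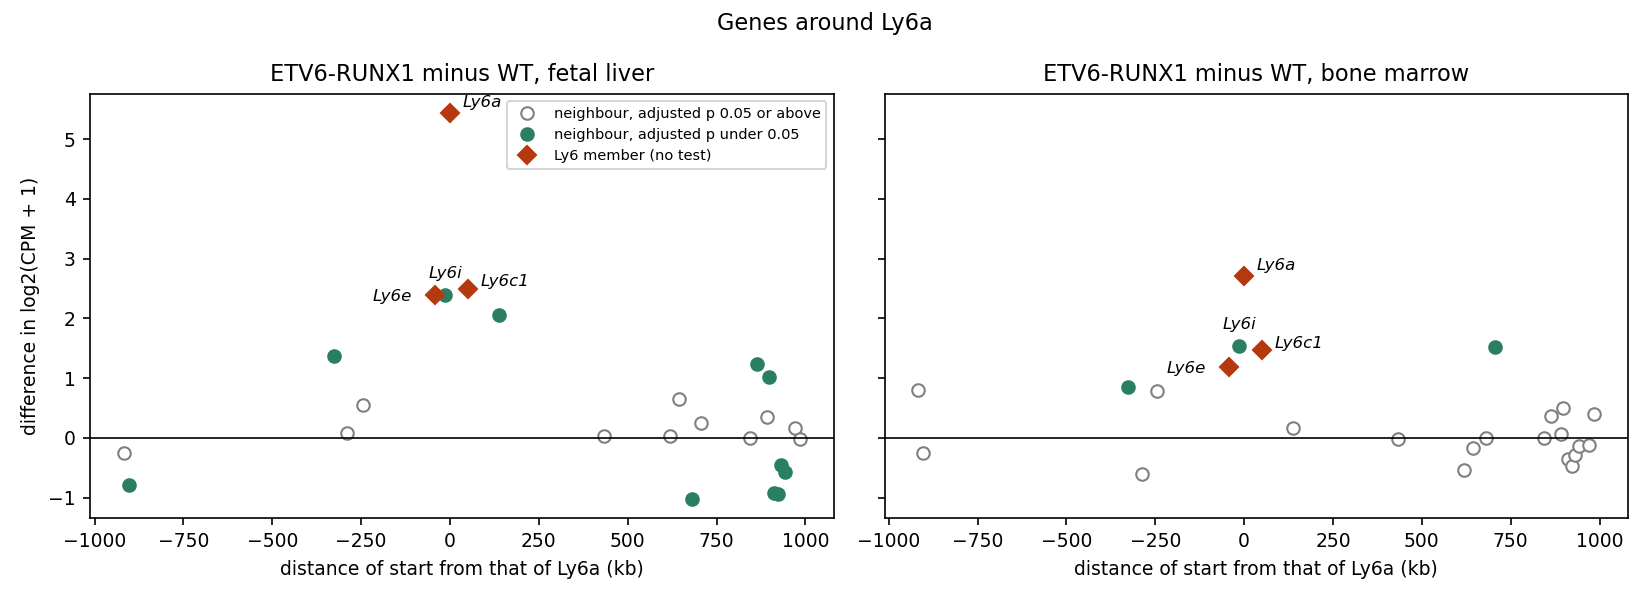
Difference in log2(CPM + 1) between ETV6-RUNX1 and WT against the distance in kb between a gene's start and that of Ly6a, in fetal liver (left) and bone marrow (right). Filled circles are neighbours with a limma adjusted p under 0.05, open circles the other neighbours, and diamonds Ly6a, Ly6e and Ly6c1, which are at 5.44, 2.39 and 2.499 in fetal liver and 2.70, 1.18 and 1.48 in bone marrow.

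The interferon pathway that Ly6a responds to was read from lists by role. For every list of this pathway the shares of all genes called higher were 24.8% in fetal liver and 14.4% in bone marrow. Between WT sources 7.77% of all genes were called lower in fetal liver. Of 21 ligand genes 1, Ifnb1, passed the filter. It passed only through the ETV6-RUNX1 fetal liver libraries, so no p is given. It had 4, 0 and 0 reads in WT and 119, 141 and 163 reads in ETV6-RUNX1 fetal liver (log2 difference 2.02 ± 0.21), and 4, 0 and 0 against 4, 10 and 4 reads in bone marrow (0.20 ± 0.21). Ifng had 2 reads in all. Of 5 receptor chains tested, Ifnar1 and Ifngr1 rose in fetal liver (0.83 and 0.57), and Ifngr1, Ifngr2 and Il10rb in bone marrow (0.43, 1.27 and 0.80). Ifnar2 did not pass (adjusted p of 0.329 and 0.0506 by limma). In bone marrow 1 receptor chain was called without WT replicate 1, 0 without ETV6-RUNX1 replicate 1 or 2, and 5 without ETV6-RUNX1 replicate 3. In fetal liver 4 were called without ETV6-RUNX1 replicate 2.

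Of the receptor kinases, Jak1, Jak2 and Tyk2 rose in fetal liver (0.98, 1.18 and 1.15). In bone marrow 1, Jak1, passed (0.80), and 0 did with edgeR, or without WT replicate 1 or ETV6-RUNX1 replicate 1 or 2 (1 with DESeq2, and 2 at an unadjusted p under 0.05 by limma). The transcription factor genes Stat2, Irf9, Irf1 and Irf7 rose in both sources. Irf7 was at 19.1, 18.9 and 20.1 CPM in WT and 1543, 1187 and 1737 CPM in ETV6-RUNX1 fetal liver (6.18 ± 0.45, limma adjusted p = 1.20e-07). Its WT bone marrow libraries held 122, 55.8 and 26.3 CPM, highest in the same replicate as Ly6a, and ETV6-RUNX1 bone marrow 249, 707 and 716 CPM. Between WT sources, Irf9, Irf1 and Irf7 fell in fetal liver, as Ly6a and Ly6e did, and Stat2 did not pass (adjusted p of 0.072 by limma).

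The list of feedback inhibitors also holds Isg15, which encodes a ubiquitin-like protein induced by interferon and whose part in inhibition was not tested. Of the 4 genes listed, Usp18 and Isg15 were the highest in ETV6-RUNX1 fetal liver, at 505 to 1063 CPM and 344 to 739 CPM, against 25.1 to 30.3 and 7.48 to 9.01 CPM in WT. Socs3 also rose there, Socs1 did not pass (adjusted p of 0.131 by limma), and all 4 rose in bone marrow. Socs1 reached 1 CPM in 0 WT and 3 ETV6-RUNX1 libraries, so the filter in part fixes its bone marrow call. In ETV6-RUNX1 fetal liver, Usp18 and Isg15 were lowest in replicate 2 and highest in replicate 3, the order of Ly6a.

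Of 27 tested genes that build and attach the GPI anchor, 3 rose and 7 fell in fetal liver (median -0.02), where 24.8% of all genes were called higher and 18.3% lower. In bone marrow, with 14.4% and 4.93% over all genes, 1 rose (Pigv, 0.63, lost without WT bone marrow replicate 1) with 0 fallen (median -0.03). Pigf (-1.07) and Gpaa1 (-0.64), an enzyme subunit and a transamidase subunit, were lower, and Dpm1 (1.01) and Pigo (0.70) were higher. The summed level of the 28 genes was 1060 to 1125 CPM in WT and 1022 to 1056 CPM in ETV6-RUNX1 fetal liver, and 1071 to 1195 CPM in ETV6-RUNX1 bone marrow. In bone marrow 3, 3 and 4 genes were called lower under median-of-ratios scaling, edgeR and DESeq2, and 4 at an unadjusted p under 0.05 by limma.

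Kit, the receptor gated together with Sca-1 in HSC sorts, did not pass in either genotype comparison (limma adjusted p of 0.582 and 0.994), with 97.5 to 235 CPM in WT and 139 to 332 CPM in ETV6-RUNX1 fetal liver. Of 16 HSC genes, 11 rose and 2 fell in fetal liver (24.8% and 18.3% over all genes), and 7 rose and 2 fell in bone marrow (14.4% and 4.93% over all genes), or 5 and 3 without WT bone marrow replicate 1. Mllt3 (2.19), Mecom (2.12) and Tek (2.09) rose in fetal liver. The 2 that fell there were Cd48 (-3.04 on the log2 scale) and Flt3 (-1.75), markers absent from the most immature HSCs. Flt3 did not pass in bone marrow (adjusted p of 0.0743 by limma). Procr, which encodes the HSC marker EPCR, rose in both sources (0.87 and 0.89), and the difference between them was -0.02 ± 0.28 (adjusted p of 0.979 by limma).

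Markers of other blood cells moved with Ly6a in fetal liver, where 24.8% of all genes were called higher and 18.3% lower. Of the tested genes, 3 of 9 monocyte and macrophage (Csf1r among them), 4 of 8 erythroid and 2 of 6 dendritic genes passed the filter only with the help of ETV6-RUNX1 libraries. Of 9 monocyte and macrophage genes tested 8 rose, among them Csf1r (mean 0.824 CPM in WT and 10.02 CPM in ETV6-RUNX1), and the list's summed level was 274 to 340 CPM in WT and 901 to 1136 CPM in ETV6-RUNX1. Megakaryocyte, erythroid, dendritic and endothelial genes were also higher in summed level. Of 11 megakaryocyte genes 7 rose (5 with edgeR and 4 with DESeq2) and 1 fell, summed at 4337 to 5857 against 9506 to 10832 CPM. Of 8 erythroid genes 7 rose (6 with DESeq2) and 0 fell (1 with edgeR and 1 with DESeq2), at 732 to 1013 against 1451 to 2227 CPM. Of 6 dendritic genes 5 rose (4 with DESeq2) and 1 fell, at 230 to 244 against 663 to 1040 CPM. Of 9 endothelial genes 5 rose (4 with edgeR) and 1 fell (2 with edgeR and 2 with DESeq2), at 420 to 508 against 795 to 969 CPM. In bone marrow the same lists were summed at 280 to 386 and 396 to 591 CPM (monocyte and macrophage), 2207 to 2884 and 1505 to 3301 CPM (megakaryocyte), 236 to 520 and 421 to 633 CPM (erythroid), 257 to 334 and 427 to 599 CPM (dendritic) and 439 to 568 and 623 to 713 CPM (endothelial), for WT and ETV6-RUNX1. By limma, 0 erythroid and 0 megakaryocyte genes were called higher in bone marrow, and 1 of each was called lower. Calls higher there were 4 monocyte and macrophage, 2 dendritic and 3 endothelial genes, with 0 lower. Over all genes 14.4% were called higher and 4.93% lower in bone marrow. The megakaryocyte and HSC lists share genes, Vwf among them, Flt3 stands in both the dendritic and the HSC lists, and Bst2 of the dendritic list is also an interferon target.

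The lists of other cell types were small. The counts are for fetal liver, where 24.8% of all genes were called higher and 18.3% lower. Granulocyte-monocyte progenitor genes (2 of 3 tested) and hepatocyte genes (2 of 5) fell. Stromal genes had 1 rise and 2 falls of 4, and mast cell genes 1 rise and 1 fall of 4 (3 falls each with edgeR and DESeq2). Of the tested genes, 2 stromal, 1 mast cell, 1 hepatocyte and 2 neutrophil genes passed the filter only with the help of ETV6-RUNX1 libraries. Postn and Hdc, the stromal and mast cell genes that rose, are among them, so the filter in part fixes these rises. Neutrophil (4 tested), B-lymphoid (1) and T and NK genes (2) had 0 calls in fetal liver by limma, edgeR or DESeq2. There 1 neutrophil gene was lower at an unadjusted p under 0.05 by limma. In bone marrow limma called 1 neutrophil gene higher and 1 lower (14.4% and 4.93% over all genes). With edgeR and DESeq2, 1 neutrophil gene and 1 T and NK gene were called lower there. Ly6d, S100a8 and Elane had at most 3 reads in each ETV6-RUNX1 fetal liver library. The part of these cell types in the Ly6 values was not tested.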

How the data were processed

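RNA of 12 libraries had been made by a stranded kit meant for very little total RNA, per the labels' protocols. The authors deposited 1 table of CPM per gene. STAR 2.5.1a, featureCounts 1.4.6-p5, Salmon 0.8.2, edgeR, limma and GRCm38 are named per the submitters' processing notes, with no role or order. Whether counting used strand is not given in the sources used here.

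Every deposited CPM value was a whole multiple of a step (100% within 0.05 of a read), which gave reads and library totals. The table has 40757 rows, and 276 repeats of a gene ID were dropped. log2(CPM + 1) was fitted for 14271 genes that reached 1 CPM in 3 or more libraries, with limma 3.58.1 (R 4.3.3), 1 coefficient per group, 8 residual degrees of freedom, a mean-variance trend, two-sided tests and Benjamini-Hochberg adjustment over all of them; a call is an adjusted p under 0.05. The count tests, edgeR 4.0.16 and DESeq2 1.42.0, were run on the recovered reads as alternatives (edgeR called 3157 genes higher and 3021 lower in fetal liver and 1384 and 1355 in bone marrow), and the fit was tested on simulated data. Exon lengths and positions come from GENCODE M21 and promoters from RefSeq (GRCm38.p6).

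The 5 genes, the gene lists and the alternatives were chosen with earlier results of these data known. Named genes were the 5 members, the 5 genes of highest Pearson r to each tested member, all neighbours of Ly6a that passed the filter, lists of at most 6 genes in full, and otherwise up to 4 called genes per list by size of the fetal liver difference with at least 5 CPM in a group, without unnamed gene models; some genes that the rule names are not reported here. Also tried were 0.1 as the pseudocount, no filter on low values (all genes with reads), median-of-ratios scaling, a replicate block, only the libraries compared, Ly6c1 and Ly6c2 summed, and leaving out each library.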

Additional observations from a re-analysis of the deposited data

Results flagged for a closer look

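The difference between the genotype effects, fetal liver minus bone marrow on the log2 scale, marked the following genes. For Ly6a it was 2.74, a description, since the choice of the gene used this comparison. For Lypd1, Ly6g6c and Ly6g6d it is also a description, for the reason given below. For all others the adjusted p was under 0.05 in the limma fit across all genes. In the LU-domain family it was 3.03 for Lypd1, 2.66 for Cd59a, 2.65 for Ly6g6c, 1.83 for Cd59b and 1.49 for Ly6g6d. Lypd1, Ly6g6c and Ly6g6d passed the filter only with the help of ETV6-RUNX1 libraries, where they are high, so no test is read for them. In Cd59a and Cd59b the genotype comparison passed in fetal liver and not in bone marrow.

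In the interferon pathway it was 0.84 for the kinase gene Jak2. It was 3.05 for Irf7, 1.96 for Stat2, 1.36 for Irf1 and 1.27 for Irf9, and 3.16 for Isg15 and 3.15 for Usp18. These 6 rose in both sources, by more in fetal liver. Among the HSC genes that the naming rule gives it was 1.76 for Tek, 1.22 for Mllt3, 1.17 for Mecom and -1.06 for Cd48, which fell in both sources. Others of that list past the threshold, named after their values were seen, were Slamf1 (2.04), Ctnnal1 (1.65) and Vwf (1.53). For Gsdmd, a neighbour of Ly6a, it was 0.86.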

How the results depend on the processing

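Of 215 alternative values for the members, 196 kept their direction and side of the threshold or moved by less than 1 SD, 13 moved further, 2 lost the call and 4 changed sign. Ly6c1, whose low values the pseudocount shrinks, moved in fetal liver to 4.54 (pseudocount 0.1), 4.87 (edgeR) and 4.92 (DESeq2), and in bone marrow to 2.64, 2.48 and 2.497, with 0.90 when summed with Ly6c2. Its source difference in ETV6-RUNX1 was 1.08 with edgeR and 1.08 with DESeq2. Its difference between genotype effects was 1.90 (pseudocount 0.1), 1.76 (summed with Ly6c2), 2.39 (edgeR) and 2.42 (DESeq2). Ly6a between WT sources was -1.89 with all genes with reads (adjusted p = 0.0864 by limma), and -2.33 to -1.24 with a library left out, where the call was lost without WT fetal liver replicate 1 (-1.71, adjusted p = 0.0572). Ly6e between ETV6-RUNX1 sources changed sign under median-of-ratios scaling (0.0145), edgeR (0.0154), DESeq2 (0.0172) and without ETV6-RUNX1 fetal liver replicate 2, with -0.39 to 0.12 over the libraries left out. The Ly6c2 ratio of means ran from 0.147 to 2.63 in bone marrow and from 0.0123 to 0.221 between WT sources with a library left out, each highest without WT bone marrow replicate 1. Of 468 counts over lists, 419 stayed within 1.5 times. LU-domain genes called lower in bone marrow went from 0 to 1 with DESeq2 and from 0 to 1 over the libraries left out, and neighbours of Ly6a from 0 to 2 (median-of-ratios scaling), 3 (edgeR) and 4 (DESeq2), and from 0 to 1 over the libraries left out. GPI anchor genes in fetal liver went from 3 higher and 7 lower to 1 and 3 with all genes with reads, and interferon receptors from 2 higher to 4 with DESeq2 or only the libraries compared. In bone marrow, receptors called higher went from 3 to 1 and kinases from 1 to 0 with all genes with reads or only the libraries compared. For the changes other than that with the pseudocount the cause was not tested.

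Same-numbered libraries did not pair: their deviations from the group means correlated at -0.44 to 0.22. With the replicate number as a block, the difference of Ly6a between WT sources was -1.89 (adjusted p = 0.0269 by limma) and that of Ly6e -1.36 (0.0112), and no call on a member changed. Depth limits Ly6c2 in WT fetal liver and Ly6d in every library, which were at or under 3 reads.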
